A study of Mus musculus with 15 samples.

Results

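The genes that fold, modify and clear proteins in the endoplasmic reticulum (ER), together with the sensors and transcription factors of the unfolded protein response, were followed in septic mouse hearts. The group was a list of 37 gene symbols, and a member was kept where a probe set was paired with that symbol alone in both value tables. This left 36 genes out of 12393 measured genes, with 81 probe sets between them. Hspa13 was dropped by this rule and is not analysed here, and Ero1l is carried under its current symbol Ero1a. By role there were 11 chaperones and their partners, 6 enzymes of disulfide and proline folding, 8 sensors, transcription factors and their targets, 6 genes of ER-associated degradation and 5 genes of protein translocation and glycan handling.

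The ER folds secreted and membrane proteins. When unfolded protein builds up in it, 3 membrane sensors respond: IRE1 (Ern1), which splices the Xbp1 message, PERK (Eif2ak3), which slows translation and favours the making of ATF4, and ATF6, which is cut to release a transcription factor. XBP1 and ATF6 are known for raising chaperone and degradation genes, while ATF4 raises Ddit3, Trib3 and the amino acid gene Asns. In heart muscle, where the specialised sarcoplasmic reticulum stores calcium, the calcium-binding chaperones are also known for their part in calcium buffering.

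Total RNA of whole hearts was hybridised to 15 arrays, 1 heart each, in 5 groups of 3. Wild-type C57/BL6 mice had caecal ligation and perforation (CLP), which lets gut bacteria into the abdomen, and the labels divide their hearts into Max Dep and Min Dep without saying what the words rank. Wild-type sham mice had the caecum moved and put back. Congenic B6.129P2-Nos2tm1Lau/J mice, which lack inducible nitric oxide synthase (Nos2) in all cells, formed a CLP and a sham group. Every group received isoflurane, buprenorphine and saline at surgery and ketamine with xylazine at 48 h, before the heart was emptied of blood and frozen. Ages were not given in the sources used here, and a whole heart mixes muscle, vessel, connective tissue and immune cells. Genotype cannot be told apart from value table or array model, so levels were never set across genotypes.

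The wild-type table holds standardised units. Once a linear step per array is undone, every probe set has the same spread over the 9 arrays. The main fits used the values as deposited, in which the spread is not exactly equal. A difference of 2 such units is therefore no fold change, and the highest CLP minus sham difference of any gene was 2.03. Knockout values behaved as log differences with an unstated base, called log units below. Neither scale gives an expression level. Knockout CLP replicate 1 was left out of the fits, because it lay between the other 2 CLP arrays in 75.1% of all genes. Its values are given beside the rest. Where both other CLP arrays lie above sham, an array between them must too, so in such genes its values are no separate support. Its independence is in doubt in the other genes as well. Some arrays stood apart in sex-linked genes. Wild-type sham replicate 1 had Xist at 2.64 against -0.53 to -0.17 on the other wild-type arrays, and knockout sham replicate 2 had Xist at -6.36 and the Y-linked Eif2s3y at 5.76. Knockout CLP replicate 1 had Xist at -3.23, against 0.68 and 0.20 in the other 2 CLP arrays. Its Eif2s3y was not high, at -0.06 against 0.10 and 0.05.

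Promoter sequence was available for 31 of the 36 members (RefSeq windows on GRCm38.p6, 250 bases before to 50 after the start of the transcript). The ER stress response element (ERSE, the letters CCAAT and CCACG with 9 bases between them), known to be bound by NF-Y with ATF6, was searched on both strands. It was found in 8 of 31 members (25.8%), against 37 of 27025 genes with a window (0.137%). This element and the related one below were picked for their known tie to this pathway. A higher share in the members is therefore a description and no test. The 27025 genes include genes not measured on these arrays. These stretches are shown because their genes include 6 of the 11 chaperones described below. They are written 5′ to 3′ on the strand of the gene, with the element in capitals. Where the element lies on the opposite strand, the capitals begin with CGTGG and end with ATTGG. Hsp90b1 had a match on each strand.
Hspa5, chr2:34772010-34772058, plus strand: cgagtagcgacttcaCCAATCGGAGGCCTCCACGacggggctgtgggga
Calr, chr8:84847060-84847108, minus strand: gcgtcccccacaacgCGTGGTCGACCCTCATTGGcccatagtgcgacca
Canx, chr11:50325785-50325833, minus strand: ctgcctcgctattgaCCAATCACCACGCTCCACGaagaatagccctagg
Hsp90b1, chr10:86705623-86705671, minus strand: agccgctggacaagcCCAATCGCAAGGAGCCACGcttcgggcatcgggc
Hsp90b1, chr10:86705518-86705566, minus strand: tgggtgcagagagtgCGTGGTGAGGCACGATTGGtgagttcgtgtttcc
Dnajc3, chr14:118937812-118937860, plus strand: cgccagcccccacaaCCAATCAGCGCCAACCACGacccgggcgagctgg
Creld2, chr15:88819505-88819553, plus strand: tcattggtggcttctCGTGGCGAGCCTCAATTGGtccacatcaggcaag
Pdia6, chr12:17266476-17266524, plus strand: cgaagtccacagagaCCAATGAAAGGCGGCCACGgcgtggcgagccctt
Syvn1, chr19:6046517-6046565, plus strand: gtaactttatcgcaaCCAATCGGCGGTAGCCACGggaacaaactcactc

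A related element, ERSE-II (ATTGG and CCACG with 1 base between them), was found in 3 other members (9.68%), against 12 of 27025 genes (0.0444%). They are shown because Krtcap2 was among the genes that changed and Dnajb11 lay just outside the threshold, as set out below. In Krtcap2 and Dnajb11 the match lies after the start of the transcript, at bases 18 to 28 and 8 to 18. In Herpud1 it lies before the start, at -52 to -42. The element is again in capitals, on the strand of the gene.
Krtcap2, chr3:89246481-89246509, plus strand: gggacacggATTGGACCACGgacggggcg
Dnajb11, chr16:22857843-22857871, plus strand: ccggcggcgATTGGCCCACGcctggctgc
Herpud1, chr8:94386362-94386402, plus strand: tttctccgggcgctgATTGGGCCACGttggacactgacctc

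The whole 250 bases upstream of Calr are given as the longer context of the chaperone with the highest wild-type difference, with ERSE in capitals (chr8:84846932-84847181, minus strand).
Calr upstream: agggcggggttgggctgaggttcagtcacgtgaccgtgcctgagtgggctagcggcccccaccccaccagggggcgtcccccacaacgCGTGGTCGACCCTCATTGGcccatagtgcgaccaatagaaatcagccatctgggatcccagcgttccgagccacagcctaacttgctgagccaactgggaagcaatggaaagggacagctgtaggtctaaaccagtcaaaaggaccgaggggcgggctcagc

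Of the other motifs searched, the XBP1-type element TGACGTGG was in 0 of 31 members and in 193 of 27025 genes (0.714%). The ATF4-type element TTGCATCA was in 1 member, Herpud1, and in 279 genes (1.03%). A match describes these letters in this window and shows no binding, and a window without one says nothing about the factor.

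Wild-type septic hearts were first compared with wild-type sham hearts, all 6 CLP arrays against 3. Calr, Xbp1, Krtcap2 and Mlec rose, and 0 members fell (limma, unmoderated, Benjamini-Hochberg over all genes, threshold 0.05). Over all genes 0.339% were called higher, 0.379% lower and 0.718% in either direction. At an unadjusted p under 0.05, 13 members were higher and 3 lower, against 9.23% and 9.38% of all genes. The median difference of the 36 members was 0.80 standardised units, beside 0.02 over all genes, and 26 members (72.2%) lay above 0, beside 50.8% of all genes. The 2 groups did not overlap in 13 members that were higher in CLP and in 2 that were lower, against 5.89% and 6.11% of all genes. Krtcap2 and Mlec had been named in an earlier account of these arrays, and 2 members passed without them.

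**Figure D1:**
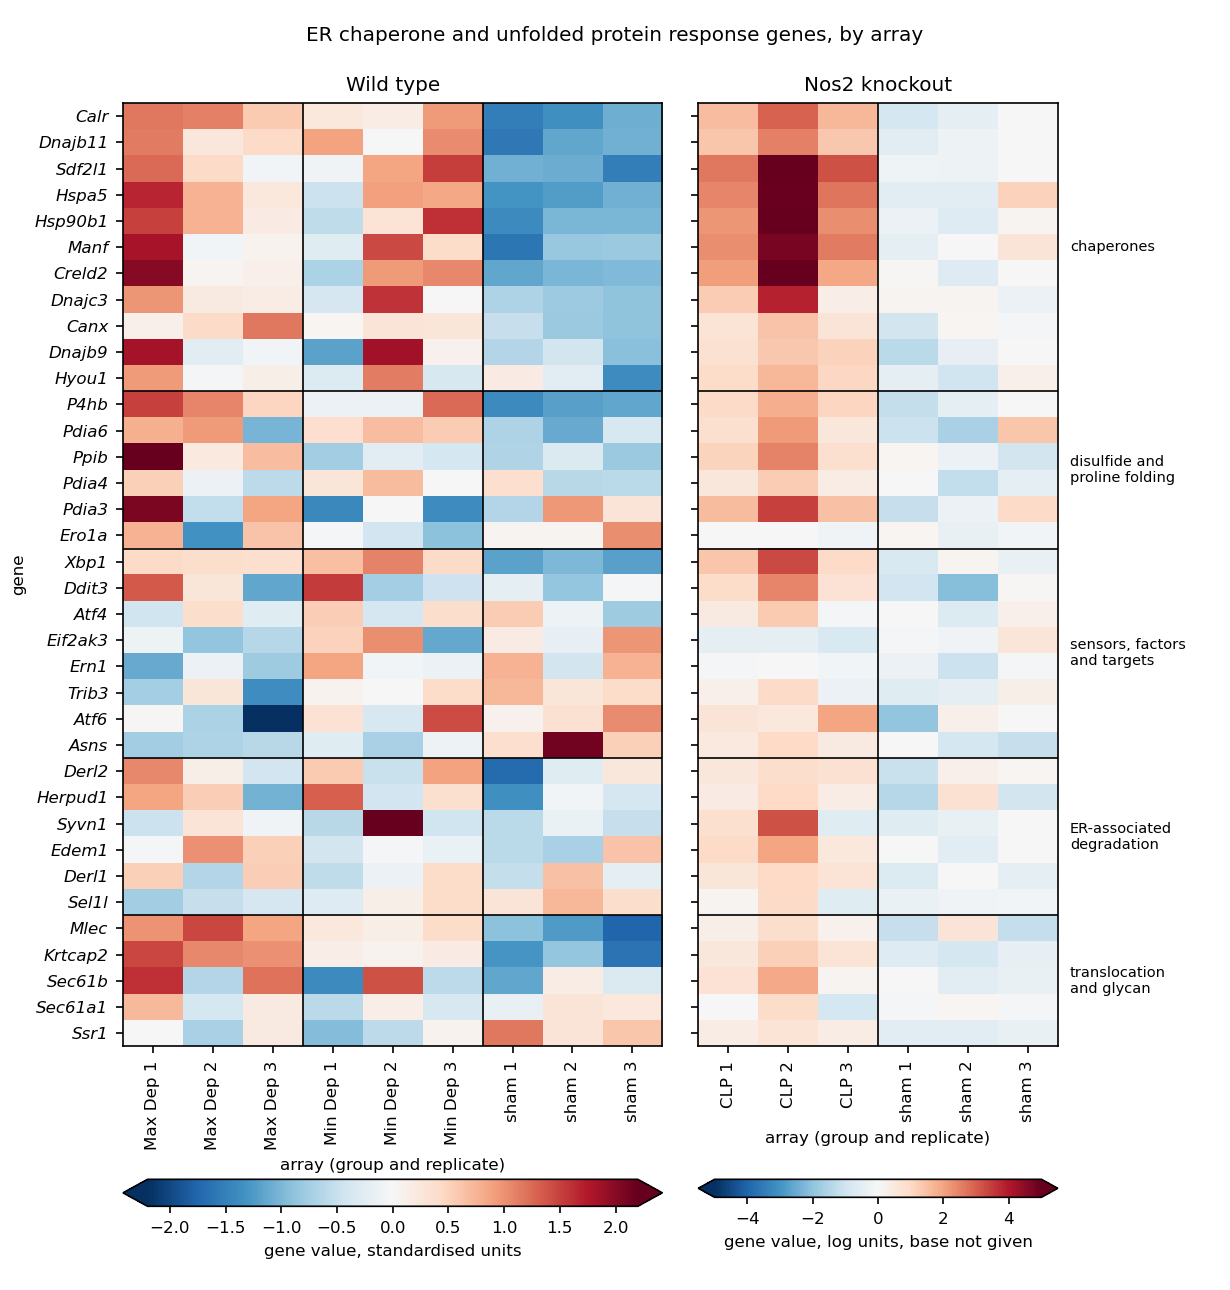
Gene values of the 36 members on every array, wild type in standardised units on the left and Nos2 knockout in log units of unstated base on the right. Rows are genes grouped by role and columns are arrays. The chaperone rows are below 0 in all 3 wild-type sham arrays, apart from Hyou1 in sham 1. Within the knockout panel they are highest in CLP 2.

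Among the chaperones, calreticulin (Calr), a calcium-binding lectin that retains unfinished glycoproteins, had 1.16, 1.11 and 0.58 in Max Dep, 0.23, 0.16 and 0.94 in Min Dep and -1.53, -1.35 and -1.08 in sham hearts. All 6 septic hearts lay above all 3 sham hearts. The CLP mean was 0.70 ± 0.44 (SD, n = 6) and the sham mean -1.32 ± 0.22 (SD, n = 3), a difference of 2.02 ± 0.24 (SE, adjusted p = 0.0357 by limma). Its 3 probe sets gave differences from 1.96 to 2.08.

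Dnajb11, an ER partner of BiP that delivers client proteins, had 1.15, 0.25 and 0.41 in Max Dep, 0.89, 0.01 and 1.04 in Min Dep and -1.58, -1.14 and -1.06 in sham hearts. The groups did not overlap, but its difference of 1.89 ± 0.32 (SE) missed the threshold (adjusted p = 0.0597 by limma). Hspa5, the master chaperone BiP, had 1.68, 0.76 and 0.23 in Max Dep, -0.46, 0.90 and 0.85 in Min Dep and -1.31, -1.23 and -1.06 in sham hearts. Here too every septic heart was above every sham heart, with a difference of 1.86 and an adjusted p of 0.105 by limma. Hsp90b1, the ER member of the HSP90 family, had 1.5, 0.76 and 0.18 in Max Dep, -0.55, 0.31 and 1.61 in Min Dep and -1.41, -1.0 and -1.0 in sham hearts. Its difference of 1.77 missed the threshold (adjusted p = 0.162 by limma), with a Min Dep group that ran from well below 0 to the highest of the 9 arrays.

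Sdf2l1, a partner of ER J-domain proteins, had 1.24, 0.42 and -0.07 in Max Dep, -0.07, 0.86 and 1.53 in Min Dep and -1.06, -1.09 and -1.52 in sham hearts. Manf, a small secreted ER stress protein, had 1.82, -0.05 and 0.08 in Max Dep, -0.26, 1.45 and 0.41 in Min Dep and -1.58, -0.84 and -0.82 in sham hearts. Neither gene overlapped between septic and sham hearts, and neither passed the test, at differences of 1.87 and 1.66. All 11 chaperones had positive differences, from 0.73 to 2.02, and 9 of them separated the groups completely. Hyou1, a nucleotide exchange factor for BiP, and Dnajb9, a J-domain partner of BiP that restrains IRE1, were the 2 that overlapped. Dnajc3, which acts with BiP and holds back PERK, was 1.21, Creld2, an ER stress protein, was 1.62, and calnexin (Canx), the membrane-bound relative of calreticulin, was 1.12. For Canx the 3 probe sets did not move together, from -0.32 to 1.84. Of the 24 members with several probe sets, 10 had probe sets of both signs, Hyou1, Pdia4 and Edem1 among them.

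In the disulfide and proline folding class 0 of 6 genes passed. P4hb, the protein disulfide isomerase that oxidises and shuffles cysteine bonds, was the only one whose groups did not overlap, with a difference of 1.92 and an adjusted p of 0.0806 by limma. Pdia6 and Pdia4, further disulfide isomerases, had differences of 1.10 and 0.41. The cyclophilin Ppib, a proline isomerase, was at 0.93, the glycoprotein isomerase Pdia3 at -0.26, and the oxidase Ero1a, which recharges P4hb, at -0.60.

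Xbp1 was the only member of the sensor, factor and target class to change. It had 0.42, 0.38 and 0.38 in Max Dep, 0.67, 1.10 and 0.42 in Min Dep and -1.18, -0.98 and -1.19 in sham hearts. The septic values were all positive and the sham values all close to -1. The difference was 1.68 ± 0.15 (SE, adjusted p = 0.0276 by limma), and all 4 probe sets pointed up, from 1.35 to 2.06. The arrays give the summed message and cannot tell spliced from unspliced Xbp1.

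No other gene of that class passed. The class median was -0.56, and 3 of 8 genes were positive, Xbp1 included. The transcription factor Atf4 was at 0.15, with probe sets from -0.86 to 1.62, and Ddit3, the CHOP factor linked to ER stress death, was at 0.51. The sensors Eif2ak3, Ern1 and Atf6 were at -0.52, -0.59 and -0.75, with probe sets from -1.61 to 0.16 for Eif2ak3 and from -1.79 to 0.57 for Ern1, and the ATF4 target and pseudokinase Trib3 at -0.70. Asns, which makes asparagine, had -0.77, -0.69 and -0.61 in Max Dep, -0.26, -0.71 and -0.11 in Min Dep and 0.36, 2.12 and 0.53 in sham hearts. Every septic heart was below every sham heart for Asns, and the difference of -1.53 missed the threshold (adjusted p = 0.136 by limma).

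**Figure D2:**
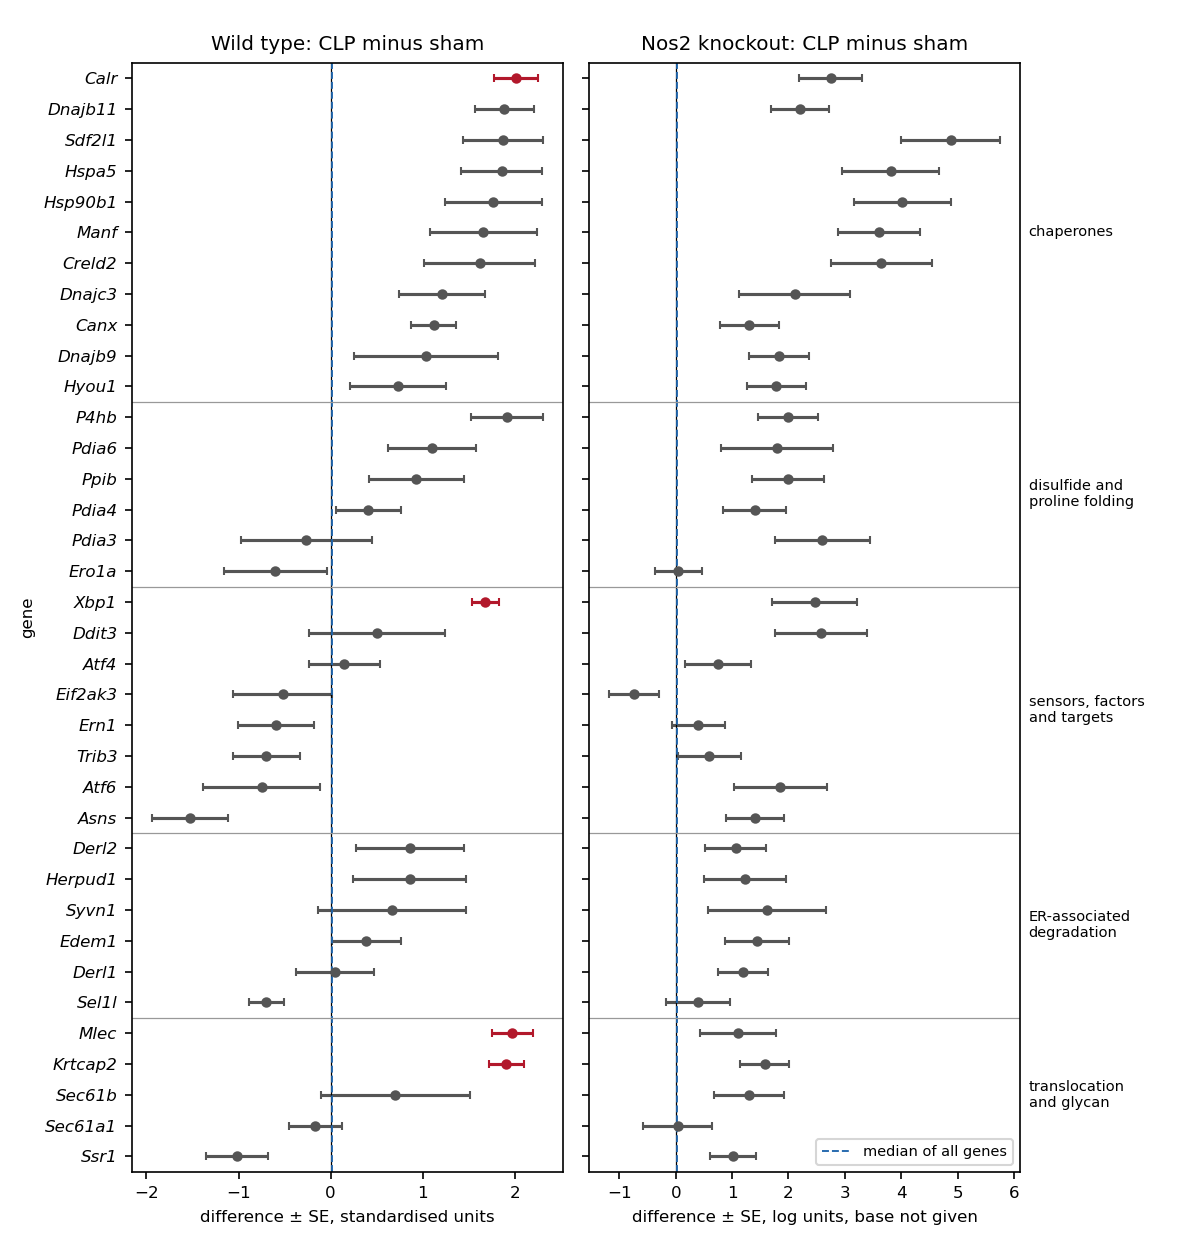
CLP minus sham difference of each member with its standard error, wild type in standardised units on the left and Nos2 knockout in log units of unstated base on the right. Red points passed the adjusted threshold of 0.05, and the dashed line is the median of all genes. In wild type the chaperones all lie right of 0 and 5 of the 8 sensor, factor and target genes lie left of it. In the knockout 35 of 36 lie right of 0.

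In ER-associated degradation, which pulls misfolded proteins out to the proteasome, 0 of 6 genes passed. Differences were 0.86 for both Derl2, a channel component, and the membrane protein Herpud1. They were 0.67 for the ubiquitin ligase Syvn1, 0.39 for the mannosidase-like Edem1, 0.05 for the channel component Derl1 and -0.70 for Sel1l, the adaptor of Syvn1. Derl1 and Sel1l each had 4 probe sets of both signs, from -1.22 to 1.83 for Derl1 and from -1.79 to 0.68 for Sel1l.

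The translocation and glycan class held the other 2 genes that rose. Krtcap2, a subunit of the oligosaccharyltransferase that attaches sugars to new proteins, had 1.47, 1.06 and 1.01 in Max Dep, 0.14, 0.07 and 0.17 in Min Dep and -1.29, -0.85 and -1.62 in sham hearts. Malectin (Mlec), a lectin that reads early sugar chains, had 0.99, 1.46 and 0.87 in Max Dep, 0.22, 0.12 and 0.41 in Min Dep and -0.90, -1.24 and -1.74 in sham hearts. In both genes the 3 groups formed 3 separate bands, with Max Dep on top and sham at the bottom. The CLP minus sham differences were 1.91 ± 0.19 for Krtcap2 and 1.97 ± 0.22 for Mlec (SE, adjusted p = 0.0307 and 0.0321 by limma). Sec61b and Sec61a1, 2 subunits of the translocation channel, were at 0.70 and -0.17, and the probe sets of Sec61a1 ran from -2.02 to 1.27. Ssr1, a subunit of the translocon-associated complex, was below sham in every septic heart, at -1.02 (adjusted p = 0.197 by limma).

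**Figure D3:**
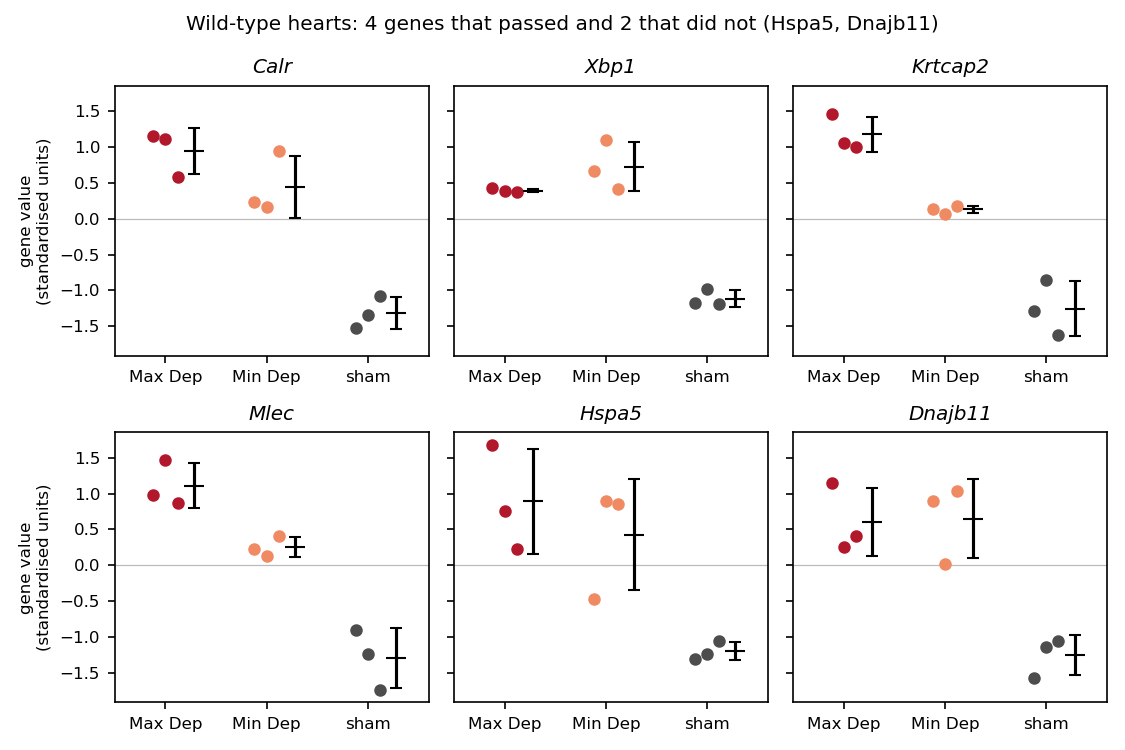
Values of 6 members in wild-type hearts in standardised units, 1 point per heart, with the mean and SD of each group (n = 3) beside the points. Calr, Xbp1, Krtcap2 and Mlec passed the test against sham, and Hspa5 and Dnajb11 did not. Krtcap2 and Mlec form separate bands of Max Dep, Min Dep and sham.

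The 4 calls rested on small margins. Leaving out any 1 of 8 of the 9 arrays brought the count of members called to 0, and leaving out Min Dep replicate 2 brought it to 5. The fit with eBayes moderation, and the fit with the 5′ minus 3′ difference of control probe sets as a covariate, each called 0. Over all settings run the differences themselves stayed between 1.89 and 2.22 for Calr, 1.59 and 2.06 for Xbp1, 1.73 and 2.11 for Krtcap2 and 1.75 and 2.17 for Mlec. The 5′ minus 3′ difference, a sign of RNA integrity, ran from -1.85 to 0.53 in CLP and from 0.39 to 1.76 in sham hearts. The median over members kept its sign in each of these, and was 0.66 without sham replicate 1, the array with high Xist.

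Markers of other cells moved with the same groups. The mean of 6 macrophage markers was 0.04 to 1.18 in CLP and -1.39 to -0.73 in sham hearts, all 6 were positive and 1, Tyrobp, rose (2.01, adjusted p = 0.0290 by limma). The mean of 6 neutrophil markers was 0.20 to 0.46 in CLP and -1.27 to -0.08 in sham hearts, with 4 of 6 positive and S100a8 and S100a9 past the threshold. All 6 fibroblast markers were lower, with means of -1.74 to 0.30 in CLP and 0.85 to 1.13 in sham hearts, and 0 passed. The B and plasma cell list, of cells rich in ER, had means of -0.93 to 1.42 in CLP and -0.10 to 0.51 in sham hearts, with Min Dep replicate 2 at the top. Endothelial markers had 3 of 5 positive and means of -0.60 to 1.15 in CLP and -0.71 to 0.20 in sham hearts. Cardiomyocyte markers had 2 of 6 positive and means of -1.32 to 0.55 in CLP and 0.14 to 0.54 in sham hearts. The scales give no level, so whether a marker was at 0 could not be read. The part of these cells in the ER results was not tested, and more cells of a type cannot be told apart from more RNA per cell.

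Each septic group was then set against sham, with the same 3 sham arrays in both comparisons. In Max Dep hearts the same 4 genes rose, at 2.43 for Krtcap2, 2.40 for Mlec, 2.27 for Calr and 1.51 for Xbp1 (adjusted p from 0.0333 to 0.0449 by limma). Of all genes 0.29% were called higher, 0.161% lower and 0.452% in either direction. At an unadjusted p under 0.05, 13 members were higher and 3 lower, against 8.87% and 7.84% of all genes. The member median was 0.83, beside -0.09 over all genes. Without Max Dep replicate 1, the highest of the 9 arrays in 12 of 36 members against 10.3% of all genes, the median was 0.53. That heart had the top value for Ppib, Creld2, Pdia3 and Manf, among others. A fit of only the 2 groups called 1 member, eBayes and the covariate fit each called 0, and leaving out any 1 array left 0 or 1.

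In Min Dep hearts 0 members passed, with 0.0161% of all genes called higher, 0.0403% lower and 0.0565% in either direction. At an unadjusted p under 0.05, 10 members were higher and 2 lower, against 7.65% and 8.77% of all genes. The smallest adjusted p values were 0.0542 for Xbp1 (1.85), 0.0748 for Calr (1.76) and for Krtcap2 (1.38), 0.0770 for Mlec (1.55) and 0.0949 for Dnajb11 (1.91), all by limma. The member median was 0.77, beside 0.12 over all genes, and 0.50 without Min Dep replicate 2. All 11 chaperones were positive in both septic groups, with medians of 1.75 in Max Dep and 1.59 in Min Dep. Complete separation from sham, upwards, was seen in 15 members for Max Dep and in 14 for Min Dep, against 13.8% and 10.9% of all genes. Downward separation was seen in 4 members for Max Dep and in 3 for Min Dep, against 12.7% and 12.4% of all genes.

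Testing every probe set on its own added a call in Min Dep for Calr and Xbp1, with 1 of 3 and 1 of 4 probe sets past the threshold. In the comparison of all CLP hearts with sham it added Dnajb11 and, by 1 of 3 probe sets, Canx.

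Max Dep and Min Dep hearts were compared directly to ask whether the ER genes track the division made by the labels. No member passed, as was so for all 12393 genes (0% called). At an unadjusted p under 0.05, 3 members were higher and 1 lower in Max Dep, against 5.21% and 4.6% of all genes. The 2 groups did not overlap in 4 members higher and 2 lower in Max Dep, against 7.89% and 7.43% of all genes. The member median was 0.14, beside -0.08 over all genes, and it was -0.26 without Max Dep replicate 1. Krtcap2 and Mlec had been named in an earlier account of these arrays. Without them 1 of 34 members was higher and 1 lower at that p. Separation was then seen in 2 higher and 2 lower members, and the median was 0.06. The smallest p was that of Krtcap2, at 1.05 ± 0.22 (SE, adjusted p = 0.324 by limma), followed by Mlec at 0.86 ± 0.26 (SE, adjusted p = 0.437 by limma).

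Sel1l had -0.76, -0.51 and -0.36 in Max Dep, -0.29, 0.13 and 0.40 in Min Dep and 0.29, 0.73 and 0.38 in sham hearts. Max Dep was the low group, without overlap with Min Dep, at -0.62 (adjusted p = 0.462 by limma). Its 4 probe sets did not move together, from -1.80 to 0.17. Ppib had 2.49, 0.21 and 0.68 in Max Dep, -0.77, -0.24 and -0.38 in Min Dep and -0.67, -0.32 and -0.81 in sham hearts. Max Dep lay above the other 2 groups, with 1 heart far above the rest (1.59, adjusted p = 0.485 by limma). Pdia3 had 2.06, -0.54 and 0.87 in Max Dep, -1.43, 0.01 and -1.39 in Min Dep and -0.65, 0.95 and 0.29 in sham hearts, so its groups overlapped (1.73, adjusted p = 0.537 by limma). The chaperone differences ran from -0.24 to 0.51, with 0 of 11 past an unadjusted p under 0.05. Dnajb11 was at -0.05 and Xbp1, outside that class, at -0.34, with probe sets from -1.25 to 0.13. Of the 24 members with several probe sets, 15 had both signs in this comparison.

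In Nos2 knockout hearts, CLP replicates 2 and 3 were compared with 3 sham hearts. No member passed the adjusted threshold with eBayes, and neither did any of the 12393 genes (0% called). At an unadjusted p under 0.05, 21 members were higher and 0 lower, against 5.83% and 6.08% of all genes, and 35 of 36 differences were positive. The member median was 1.60 log units, beside 0.03 over all genes. Complete separation upwards was seen in 25 members and downwards in 1, against 15% and 14% of all genes. The smallest adjusted p was in Sdf2l1 (0.107 by limma), and with all 6 knockout arrays in the fit, CLP replicate 1 included, Calr passed (2.5, adjusted p = 0.0488 by limma). That fit counts replicate 1 as independent of the other CLP arrays, which its place between them puts in doubt.

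The 5 largest differences were in chaperones, Creld2 at 3.65 among them. The 5 members of smallest p, also chaperones, are described on every array used in the fit. Sdf2l1 had 6.26 and 3.18 log units in CLP replicates 2 and 3, against -0.23, -0.24 and 0.00 in sham hearts, a difference of 4.88 ± 0.88 (SE). The unused CLP replicate 1 was at 2.64, above all sham hearts but below both other CLP arrays. It lay between those arrays in most genes, though not in this one, so it is not counted as separate support. Hsp90b1 had 5.19 and 2.32 in CLP, against -0.31, -0.63 and 0.13 in sham hearts, a difference of 4.02 ± 0.85 (SE, adjusted p = 0.140 by limma). Hspa5 had 4.95 and 2.69 in CLP, against -0.55, -0.57 and 1.13 in sham hearts, a difference of 3.81 ± 0.86 (SE, adjusted p = 0.158 by limma). In both genes sham replicate 3 was the highest control, and the CLP hearts were well above it.

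Manf had 4.73 and 2.61 log units in CLP, against -0.44, 0.00 and 0.64 in sham hearts, a difference of 3.60 ± 0.72 (SE, adjusted p = 0.128 by limma). Calr had 2.95 and 1.67 in CLP, against -0.88, -0.44 and 0.00 in sham hearts, a difference of 2.75 ± 0.56 (SE, adjusted p = 0.131 by limma). All 11 chaperones separated CLP from sham, with differences from 1.31 to 4.88. Dnajb11 had 2.54 and 1.35 in CLP, against -0.55, -0.24 and 0.00 in sham hearts, and Xbp1 had 3.31 and 0.97 against -0.75, 0.14 and -0.36. In each of these genes CLP replicate 2 stood clear above replicate 3.

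**Figure D4:**
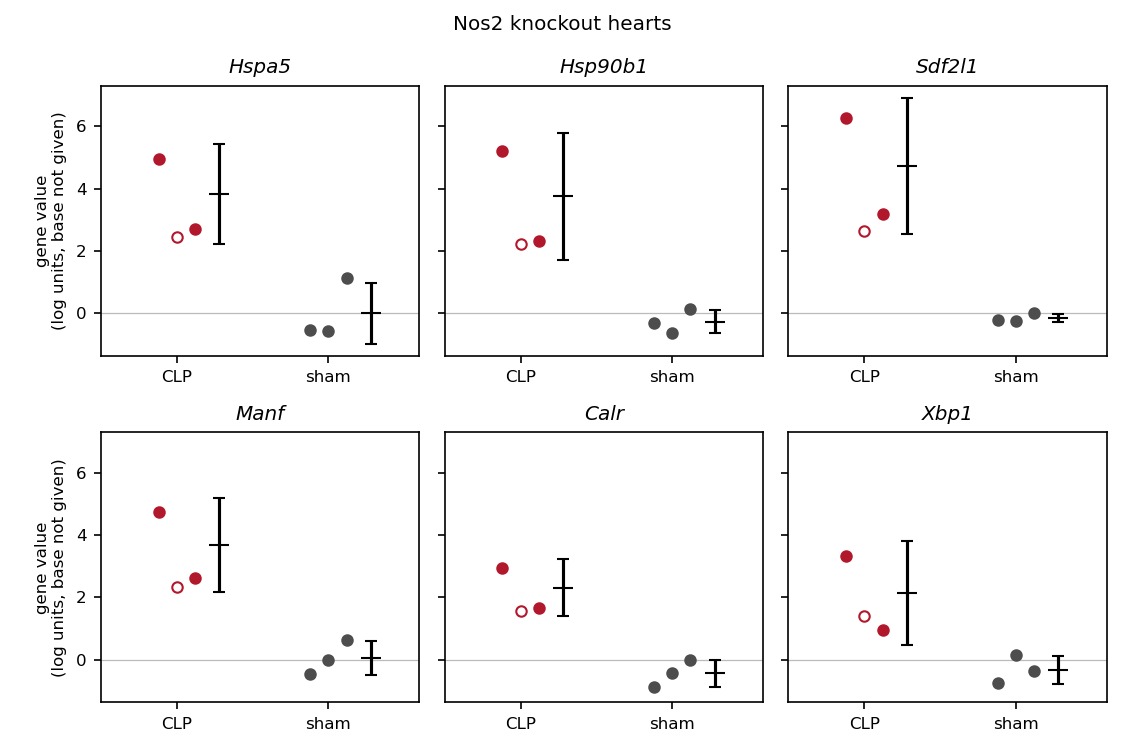
Values of 6 members in Nos2 knockout hearts in log units of unstated base, 1 point per heart, with the mean and SD of the arrays used (CLP n = 2, sham n = 3). The open circle is CLP replicate 1, which was not used in the fits. Both CLP hearts used lie above every sham heart in all 6 genes, and CLP replicate 2 is the highest in each. The open circle also lies above sham. Over all measured genes that array mostly lay between the other CLP arrays, though not in Sdf2l1, and it is not counted as separate support.

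The size of the knockout differences depended on that heart. CLP replicate 2 was the highest of the 6 knockout arrays in 33 of 36 members, against 17.6% of all genes. It exceeded CLP replicate 3 in 35 members, against 44.2% of all genes. Without it the member median was 1.03, and without replicate 3 it was 2.02. Replicate 2 also had the highest mean of the macrophage markers (2.29, against 1.79 in replicate 3 and -0.61 to 0.08 in sham hearts) and of the neutrophil markers (3.06, against 1.97 in replicate 3 and -0.31 to -0.19 in sham hearts). Its mean of the cardiomyocyte markers was the lowest (-1.76, against 0.10 in replicate 3 and -0.10 to 0.89 in sham hearts). Its 5′ minus 3′ control difference was -2.06, against -0.78 in replicate 3 and -1.97 to 0.98 in sham hearts. Of the marker lists, 5 of 6 macrophage and 6 of 6 neutrophil markers were higher in knockout CLP hearts, and 0 of 5 endothelial markers were, with endothelial means of -1.05 and -2.62 in CLP and 0.56 to 1.70 in sham hearts. The part of these in the ER values was not tested.

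The other classes had lower medians than the chaperones in the knockout, from 1.08 to 1.89 against 2.75. Of the folding enzymes, Pdia3 was at 2.60, Ppib and P4hb both at 1.99, Pdia6 at 1.80, Pdia4 at 1.40 and Ero1a at 0.05. In the sensor, factor and target class, Ddit3 was at 2.58, Xbp1 at 2.46, Atf6 at 1.85, Asns at 1.40, Atf4 at 0.75, Trib3 at 0.60 and Ern1 at 0.40. The PERK gene Eif2ak3 was the only member below 0, at -0.74. ER-associated degradation genes ran from 0.40 for Sel1l to 1.61 for Syvn1, and translocation and glycan genes from 0.04 for Sec61a1 to 1.58 for Krtcap2. Mlec, called in wild type, was at 1.10 with overlapping groups in the knockout.

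Directions were set side by side across the 2 tables, which share no array. Differences were positive in both genotypes for 26 of 36 members (72.2%), against 28.7% of all genes, and had the same sign for 75% of members against 55.1% of all genes. Complete upward separation in both was seen in 12 members, namely 9 chaperones with P4hb, Xbp1 and Krtcap2, against 270 of 12393 genes (2.18%). Asns had 1.00 and 0.45 log units in knockout CLP hearts, against -0.01, -0.87 and -1.15 in sham hearts, which is opposite to its wild-type order. Ssr1 likewise had 0.67 and 0.38 in knockout CLP hearts, against -0.56, -0.55 and -0.37 in sham hearts. Whether the response differs between genotypes was not tested, since the scales differ.

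The promoter matches shown above were read against these values without a test. The 8 members with ERSE had a median CLP minus sham difference of 1.42 in wild type and 2.43 in the knockout, and all 8 were positive in both. The 20 members with neither ERSE nor ERSE-II had medians of 0.40 and 1.35, with 12 and 19 of 20 positive. Most members with ERSE are chaperones, and the 11 chaperones had medians of 1.66 and 2.75. A match and the chaperone class therefore cannot be told apart here. Xbp1, Sdf2l1, P4hb and Mlec were among those 20, so genes with large wild-type differences were found with and without a match. Outside the list, 10 further measured genes carry ERSE, and their medians were 0.29 in wild type and -0.25 in the knockout.

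A wider list of 103 pathway genes that are not members gave 0 calls in every comparison by limma, at the same percentages of all genes as above. At an unadjusted p under 0.05, 12 were higher (11.7%) and 12 lower in wild-type CLP hearts, near the 9.23% and 9.38% of all genes. In knockout CLP hearts 28 were higher (27.2%) and 1 lower, against 5.83% and 6.08% of all genes. In wild-type CLP hearts 54 of 103 were positive (52.4%, against 50.8% of all genes), with a median of 0.09. In knockout CLP hearts 75 of 103 were (72.8%, against 51.5% of all genes), with a median of 0.42. By class, the 34 further sensor and integrated stress response genes had a wild-type median of -0.41 and the 18 further translocation and signal peptidase genes one of 0.75. In wild type the smallest p values belonged to Sec11c, a signal peptidase subunit, at 1.92 (adjusted p = 0.0543 by limma), and to Phgdh, the first enzyme of serine synthesis, at -1.42 (adjusted p = 0.0567 by limma). The stress factor Nfe2l2 was at -1.97 and the proline isomerase Fkbp2 at 1.90. In the knockout the retrotranslocation protein Selenos was at 3.72 and the oligosaccharyltransferase subunit Magt1 at 3.01 (adjusted p = 0.0820 for both by limma), Fkbp2 at 4.08 and Uggt1, the folding checkpoint glucosyltransferase, at 4.46. Between Max Dep and Min Dep 83 of the 103 were positive (80.6%, against 46.7% of all genes), with a median of 0.53, and 0 passed.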

How the data were processed

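The deposited values are 2 tables of 22690 probe sets, 1 of 9 wild-type and 1 of 6 knockout arrays. How the scanner signals became these values was not stated in the labels or the tables. The deposited wild-type values are a score that the authors standardised: a linear step per array undone, every probe set has mean 0 and SD 1. The deposited knockout values are a score from -7.78 to 8.18 resembling log differences around each probe set's centre, without a stated base. Intensities were not used, so precision is limited by the number of arrays.

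From these scores, 64 control probe sets were left out, the 20380 probe sets paired with 1 gene by the platform annotation were kept (691 had several and 1555 none), and probe sets of a gene were averaged. Comparisons used the lmFit function (limma 3.58.1, R 4.3.3), unmoderated on all 9 wild-type arrays (6 residual degrees of freedom) and with eBayes on 5 knockout arrays (3), with Benjamini-Hochberg adjustment over 12393 genes at 0.05. The procedure was tested on simulated data. The labels call the arrays separate hearts, and replicate numbers only name them. The members, lists and tests were chosen with earlier results of these data known. Every member is named. Members described on every array used passed the threshold somewhere or were among the 5 of smallest p in a comparison. Asns and Ssr1 were added after their values were seen. Of the wider pathway lists only genes among the 2 of smallest p in their class are named. Alternatives changed the probe set summary, scaling, moderation, covariate and arrays used. Figures were drawn with matplotlib 3.10.9.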

Additional observations from a re-analysis of the deposited data

Results flagged for a closer look

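Within the 6 wild-type CLP hearts, Max Dep and Min Dep pooled, 3 of 36 members had 1 heart far from the other 5. The rule was a gap to the nearest heart, as a share of the whole range, beyond Dixon's critical value. Chance gives about 1 in 20 groups, so 3 of 36 is near that rate. The share of all genes was not computed, and the count is no result about the members. Canx was highest in Max Dep replicate 3, with a share of 0.668. Pdia6 was lowest in Max Dep replicate 3, with a share of 0.712. Syvn1 was highest in Min Dep replicate 2, with a share of 0.74.

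Asns and Ssr1 were higher in every knockout CLP heart used than in every knockout sham heart, by 1.40 log units for Asns and 1.02 for Ssr1, and lower in every wild-type CLP heart than in every wild-type sham heart. The difference between the genotypes was not tested. Knockout CLP replicate 1, which entered no main comparison, lay above all 3 knockout sham hearts in 28 of 36 members, against 23.7% of all genes. It lay between the other 2 CLP hearts in 24 members, so its place above sham largely follows from theirs and is no separate support.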

How the results depend on the processing

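No result changed direction while past the threshold. Of 4 members called in wild-type CLP against sham, 0 were called with eBayes, 0 with the control probe sets' 5′ to 3′ difference as covariate, 2 without Krtcap2 and Mlec (chosen after seeing the data), and 0 to 5 with 1 array left out, the 5 being without Min Dep replicate 2. Of 4 in Max Dep against sham, 0 were called with eBayes, 0 with the covariate, 2 with the median of a gene's probe sets, 1 with only the 2 groups fitted, 2 without Krtcap2 and Mlec, and 0 to 1 with 1 array left out. In Min Dep against sham, where 0 were called, 2 were called with every probe set tested, 1 with the array standardisation undone, and 0 to 1 with 1 array left out. In the knockout, where 0 were called, 1 was called with all 6 arrays, CLP replicate 1 included. The causes were not tested. With 1 array left out, the member median ran from 0.63 to 0.95 in wild-type CLP, 0.53 to 1.08 in Max Dep, 0.50 to 0.83 in Min Dep, -0.26 to 0.38 for Max Dep against Min Dep and 1.03 to 2.02 in the knockout. With the array standardisation undone, the median for Max Dep against Min Dep was -0.05. No paired analysis was possible because the labels give no replicate numbers. No signal over background is known for these arrays.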
